A study of Arabidopsis thaliana with 8 samples.

Results

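The genes described here encode immune receptors and related proteins of Arabidopsis that carry a TIR domain. They were taken from a list of 60 TIR-domain and TIR-NBS-LRR genes. A gene was kept where the annotation of the array assigned it a probe set naming no other gene. Of the 60 genes, 50 had 1 such probe set each, out of 13286 genes named in this way. Of the 10 genes left out, AT4G16940, AT5G41740, AT5G41750 and AT5G46260 were named only together with another gene. The other 6, AT1G56510, AT1G72910, AT3G44670, AT4G11170, AT4G14370 and AT5G45070, were not named in the annotation table used. That table gives locus tags for these genes and no description of their domains, so membership of the family rests on the list.

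TIR-NBS-LRR proteins are intracellular receptors. Their leucine-rich repeats sense the action of pathogen effectors, the nucleotide-binding part works as a switch, and the TIR domain starts the response. Plant TIR domains are enzymes that cleave NAD+, and the small molecules they make are read by EDS1 together with PAD4 or SAG101, which then engage helper receptors. Genes of this family often lie in tandem runs and differ in sequence and number between natural accessions, and some shorter members lack the repeats.

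Transcripts were measured in untreated 7-day-old seedlings on 8 arrays, 2 in each of 4 groups. The groups were the accessions Wassilewskija (Ws) and Ler-0, a line labelled de-etiolated (Col background), and a line labelled gibberellin deficient and leaky (Ler background). Both lines are taken here to be mutants, but the labels name no mutated gene. The background of the gibberellin-deficient line is given as Ler and the wild type as Ler-0. Whether these are the same stock is not known here. The samples hold no wild type of Col, so the mutation and the accession of the de-etiolated line cannot be told apart. The array was designed on the Col sequence, and between accessions a difference in transcript amount and a difference in how well the probes match cannot be told apart. Since seedlings were measured in bulk, fewer cells of a type and less RNA per cell cannot be told apart either.

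The 2%-trimmed mean signal was between 100.009 and 100.01 on all 8 arrays, and median signals ranged from 34.9 to 38.4. Across probe sets, log2 signals of arrays of the same group had correlations of 0.965 to 0.971, against 0.934 to 0.963 between groups. Of 8 root markers, 2 had a probe set of their own, with signals of 59.5 to 1056 over the 8 arrays. No marker of green tissue (8 listed) or of seed storage (7 listed) was named alone by a probe set, so those checks of the tissue could not be made. No 2 arrays held identical values.

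Most TIR genes gave weak signals in these seedlings. A probe set is called dim here where its mean over the 8 arrays, on the scale log2(signal + 2.96), lay among the lowest 40% of all probe sets, which corresponds to a signal of 24.2. By this rule 38 of the 50 genes were dim and 12 were not. Dim genes had signals from 0.249 to 66.5 with a median of 11.7, and for 27 genes all 8 arrays lay below 24.2. Levels of different genes cannot be ranked from these signals, because each probe set has its own response.

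The weak signals went with a wide spread between replicate arrays. The median replicate SD over the 50 genes was 0.35 on the log2 scale. It was 0.26 over probe sets naming 1 gene and 0.24 over all 22746 probe sets. The distance between the highest and the lowest of the 4 group means had a median of 0.64 for the TIR genes. It was 0.59 for probe sets naming 1 gene and 0.58 for all probe sets. In 8 genes the replicate SD was larger than that distance, a count not made over all probe sets. AT5G17970 was one of them, with 2.51 and 13.5 in Ler-0, 13.2 and 2.38 in the de-etiolated line, 2.72 and 12 in the gibberellin-deficient line, and 4.77 and 8.13 in Ws. Its replicates lay further apart than its group means.

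**Figure D1:**
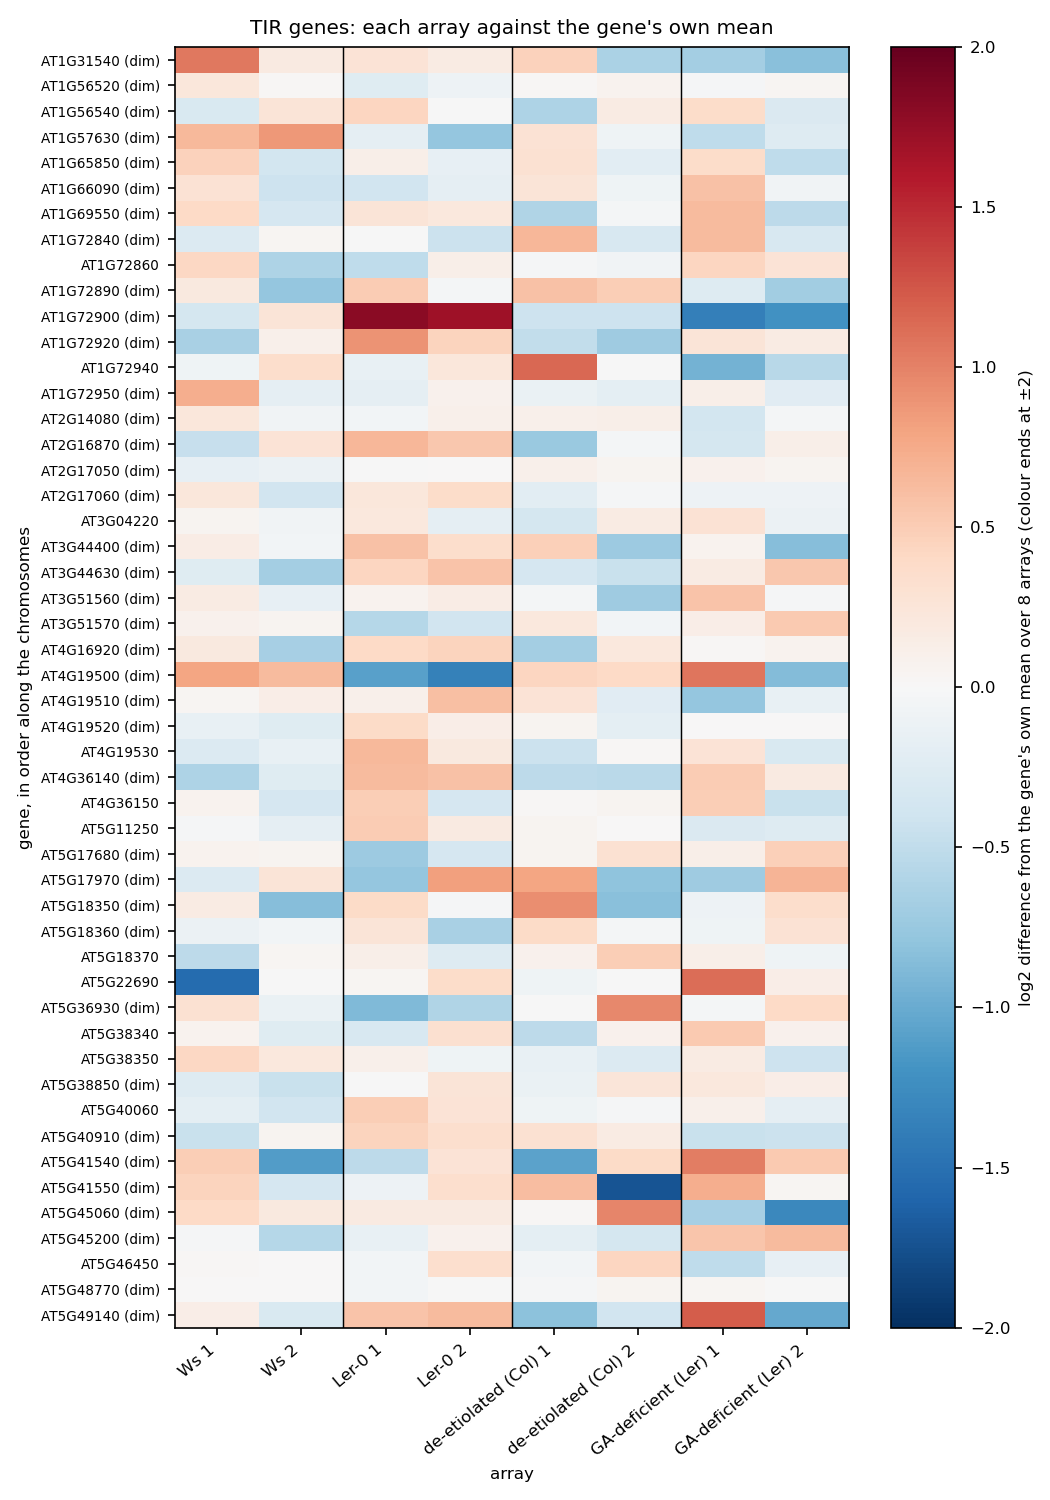
Heat map of the 50 TIR genes (rows, in chromosome order) on the 8 arrays (columns, 2 per group). Colour gives the log2 difference of each array from the gene's own mean over all 8 arrays, red above and blue below; among the rows with strong colour are AT1G72900, red in both Ler-0 arrays and blue in both arrays of the gibberellin-deficient line, and AT4G19500, blue in both Ler-0 arrays.

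Tests were made with limma on all 8 arrays, and a gene is called where its p-value, adjusted by the Benjamini-Hochberg method over all probe sets tested, was below 0.05. Leaving out dim probe sets, 12 TIR genes were among 13648 tested. None of the 12 was called between Ws and Ler-0, between the de-etiolated line and Ws, between the de-etiolated line and Ler-0, or between the gibberellin-deficient line and Ler-0. At an unadjusted p below 0.05 the numbers were 3, 0, 1 and 2, but no share over all probe sets was taken at that threshold. The shares that follow are for adjusted p. Over all probe sets the shares called were 5.82%, 2.24%, 15.9% and 10.7%. The F test for any difference among the 4 groups called 1 of the 12, AT1G72940, where the share over all probe sets was 26.1%.

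A fit without the filter covered all 50 genes. It called 1 between Ws and Ler-0, 0 between the de-etiolated line and Ws, 2 between the de-etiolated line and Ler-0, and 1 between the gibberellin-deficient line and Ler-0, every one of them lower than in Ler-0. At an unadjusted p below 0.05 the numbers were 8, 0, 9 and 8. Those numbers have no background here, because the shares over all probe sets were taken only at adjusted p. In either direction, 2.37%, 0.594%, 7.55% and 4.54% of all 22746 probe sets were called. The shares called lower were 1.27%, 0.229%, 3.89% and 2.69%. The F test called 2 of 50, AT1G72900 and AT4G36140, against 12.5% of all probe sets. Calls of 1 and 2 genes are 2% and 4% of the 50. The calls lower than in Ler-0 were thus near the share over all probe sets. The standard error (SE) of a log2 difference was 0.22 to 0.70 for single TIR genes, with a median of 0.37 against 0.27 for all probe sets, so only large differences could pass.

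**Figure D2:**
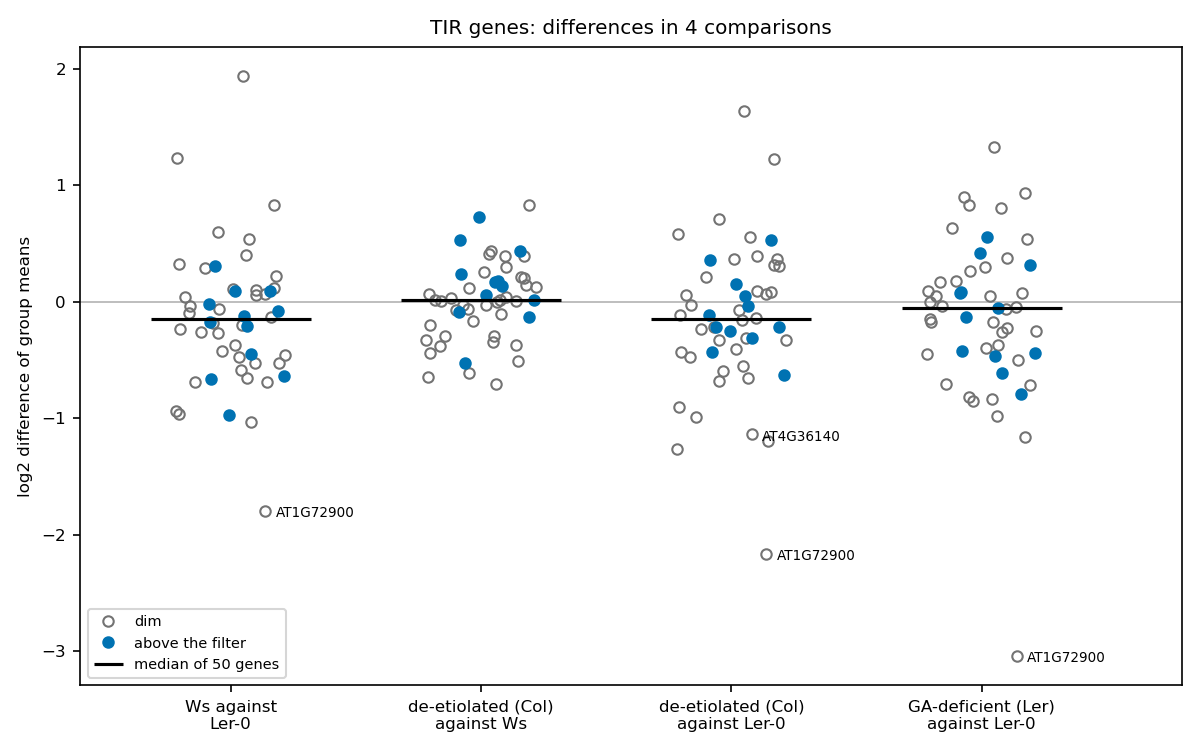
Log2 differences of group means for the 50 TIR genes (points) in 4 comparisons, with the median as a black bar (GA, gibberellin). Open circles are dim genes and filled circles the 12 genes above the filter; genes named are those called in the fit without a filter, AT1G72900 at -1.80, -2.17 and -3.04 and AT4G36140 at -1.14.

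AT1G72900 had the widest distance between group means of the 50 genes, 3.04 on the log2 scale. Its signal was 66.5 and 61.2 in the Ler-0 arrays, 12.7 and 20.7 in Ws, 12 and 11.9 for the de-etiolated line, and 4.74 and 5.57 in the gibberellin-deficient line. Both Ler-0 arrays lay above all 6 others, and both arrays of the gibberellin-deficient line lay below all others, although this mutant is labelled as being in the Ler background. The mean was 63.9 ± 3.72 (SD, n = 2) in Ler-0 and 5.15 ± 0.587 (SD, n = 2) in that mutant.

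In the limma fit without a filter, AT1G72900 was lower than in Ler-0 by a log2 difference of -3.04 (8.24-fold, SE 0.32, adjusted p = 0.0023) in the gibberellin-deficient line. The log2 difference was -2.17 (4.49-fold, adjusted p = 0.0042) in the de-etiolated line and -1.80 (3.47-fold, adjusted p = 0.021) in Ws. These 3 comparisons share the Ler-0 arrays. The de-etiolated line and Ws differed by -0.37 (adjusted p = 0.73). Over the alternatives, adjusted p ranged from 0.0023 to 0.028 for the gibberellin-deficient line and from 0.0019 to 0.040 for the de-etiolated line. For Ws the call was lost without Ws replicate 1 (adjusted p = 0.14), Ler-0 replicate 1 (0.15) or Ler-0 replicate 2 (0.12). With a pseudocount of 14.8 the 3 differences were -1.98, -1.56 and -1.33. The gene was dim by its mean over the 8 arrays and was therefore not among the 12 genes tested with the filter.

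AT1G72900 lies on chromosome 1 in a run of 7 measured TIR genes, AT1G72840 to AT1G72950, which spans 17 genes in the order of assembly TAIR10.1. The group with the highest mean was the de-etiolated line for 3 of the 7 genes, Ler-0 for 2, and Ws and the gibberellin-deficient line for 1 each. AT1G72920 had 38.5 and 27.3 in Ler-0, 11.3 and 21.0 in Ws, 12.9 and 10.7 for the de-etiolated line, and 23.9 and 22 in the gibberellin-deficient line. Its Ler-0 arrays too lay above all others, but here the arrays of the gibberellin-deficient line came next, with a log2 difference from Ler-0 of -0.45 (adjusted p = 0.555, fit without a filter). Against Ler-0 the de-etiolated line had a log2 difference of -1.27 (adjusted p = 0.057), which passed with a pseudocount of 14.8 (0.048) and without Ws replicate 1 (0.047).

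AT1G72940, above the filter, was called by the F test with the filter (adjusted p = 0.045), whereas AT1G72900 was called by it only in the fit without one (adjusted p = 0.0019). Its signal was 136 and 59.6 in the de-etiolated line, 56.4 and 77.5 in Ws, 53.9 and 70.8 in Ler-0, and 29.6 and 39.8 in the gibberellin-deficient line. Both arrays of the gibberellin-deficient line lay below the 6 others, and the first array of the de-etiolated line stood above all. Against Ler-0 the gibberellin-deficient line had a log2 difference of -0.79 (adjusted p = 0.15). Without replicate 2 of the de-etiolated line, this difference was called (adjusted p = 0.048), and so was that of the de-etiolated line from Ler-0, at 1.11 (adjusted p = 0.030) against 0.53 on all arrays (0.31). The F call was lost in 6 of 8 fits that left out 1 array: without Ws replicate 2, replicate 1 of the de-etiolated line, or any array of Ler-0 or the gibberellin-deficient line. Adjusted p over these 8 fits ranged from 0.0045 to 0.24, and it was 0.12 without the filter.

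The other 4 genes of the run were not called in any comparison. AT1G72890 had 22 and 14.0 in Ler-0, 23.2 and 21.7 in the de-etiolated line, 17.1 and 7.25 in Ws, and 11.7 and 7.82 in the gibberellin-deficient line. AT1G72860 had its highest mean in the gibberellin-deficient line, 33.1 ± 3.01 (SD, n = 2) against 22.2 ± 7.52 in Ler-0. AT1G72840 had 31.1 and 14.3 in the de-etiolated line and 30.3 and 14.3 in the gibberellin-deficient line, with 13.0 to 19.0 in Ws and Ler-0. AT1G72950 lay between 10.7 and 23.6 on all 8 arrays, and its groups overlapped.

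**Figure D3:**
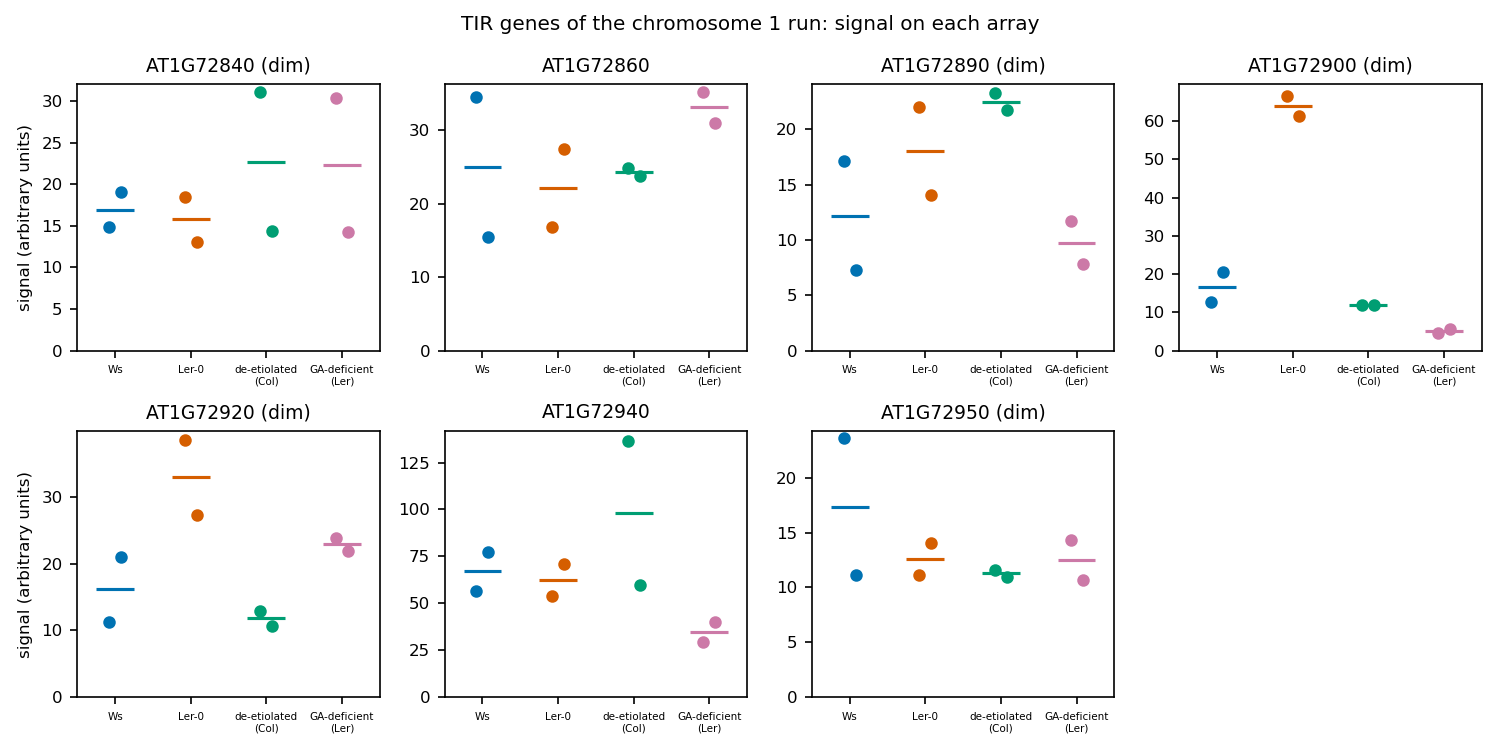
Signal (arbitrary units, linear axis from 0) of the 7 measured TIR genes of the chromosome 1 run, 1 panel a gene. Points are single arrays and bars are means of 2 arrays; AT1G72900 shows Ler-0 at 66.5 and 61.2 with all other arrays at or below 20.7, while AT1G72950 shows overlapping groups.

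AT4G36140 and AT4G36150 are direct neighbours on chromosome 4. AT4G36140 had 38.4 and 36.9 in Ler-0 and 35.0 and 27.1 in the gibberellin-deficient line, against 14.5 and 19.6 in Ws, and 15.5 and 15.4 for the de-etiolated line. All 4 arrays of Ler background thus lay above the 4 arrays of the other backgrounds. In the limma fit without a filter it was lower in the de-etiolated line than in Ler-0 by a log2 difference of -1.14 (SE 0.28, adjusted p = 0.040). Without any 1 of the arrays of Ler-0 or of either mutant this call was lost (adjusted p = 0.055 to 0.18), as it was with quantile normalization (0.054). The F call (adjusted p = 0.047) was lost without any 1 of the 8 arrays (0.066 to 0.15), with quantile normalization (0.069) and without a trend (0.056). Ws had a log2 difference from Ler-0 of -1.03 (adjusted p = 0.11) and the gibberellin-deficient line one of -0.26 (0.695). AT4G36150 had means of 37.9 ± 16.0 in Ler-0, 36.8 ± 17.7 in the gibberellin-deficient line, 35.3 ± 0.469 in the de-etiolated line and 31.2 ± 6.70 in Ws (SD, n = 2 each).

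AT3G44630, on chromosome 3, had the same split by background among its arrays. Its signal was 25.7 and 28.8 in Ler-0 and 20.9 and 27.8 in the gibberellin-deficient line, against 15 and 10.4 in Ws, and 13.8 and 12.6 for the de-etiolated line. Again the 4 arrays of Ler background lay above the other 4, but the gene was not called, with adjusted p = 0.18 for Ws and 0.13 for the de-etiolated line against Ler-0. AT3G44630 was named after its values were seen. A split of this kind was counted neither over the family nor over all probe sets.

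AT4G19500 had 1.5 and 0.753 in Ler-0. It had 13.4 and 11.8 in Ws, and 9.88 and 9.51 for the de-etiolated line, while the gibberellin-deficient line had 16.9 and 2.25. Both Ler-0 arrays lay below all 6 others, but the replicates of the gibberellin-deficient line lay far apart. The log2 difference of Ws from Ler-0 was 1.94 (SE 0.56, adjusted p = 0.12, fit without a filter) and was not called. It passed without replicate 1 (adjusted p = 0.034) or replicate 2 (0.033) of the gibberellin-deficient line, and so did the de-etiolated line against Ler-0 (0.033 and 0.032). Its neighbours AT4G19510, AT4G19520 and AT4G19530 had their highest means in Ler-0. AT4G19530 had 166 and 121 in Ler-0, 127 and 84.3 in the gibberellin-deficient line, 76.9 and 106 in the de-etiolated line, and 85.8 and 93.9 in Ws. Ws and Ler-0 did not overlap in AT4G19530, yet its log2 difference of -0.64 was not called (adjusted p = 0.15).

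In the gibberellin-deficient line AT5G45060 had 10.1 and 5.46. The other groups had 24.3 and 20.7 (Ws), 20.5 and 20.4 (Ler-0), and 18.0 and 37.7 (de-etiolated line). Both arrays of the gibberellin-deficient line lay below the 6 others, and its log2 difference from Ler-0 of -1.16 was not called (adjusted p = 0.14, fit without a filter). AT5G11250, above the filter, had 32.1 and 32.5 in this mutant, 57.3 and 45.5 in Ler-0, 38.8 and 34.6 in Ws, and 41.4 and 39.6 for the de-etiolated line. Ler-0 lay above and the gibberellin-deficient line below all other arrays, with a log2 difference of -0.62 (SE 0.21, adjusted p = 0.086). AT5G45200 went the other way in this mutant, at 24.0 and 25.4 against 9.33 to 16.4 on the 6 other arrays, and was not called (adjusted p = 0.35).

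**Figure D4:**
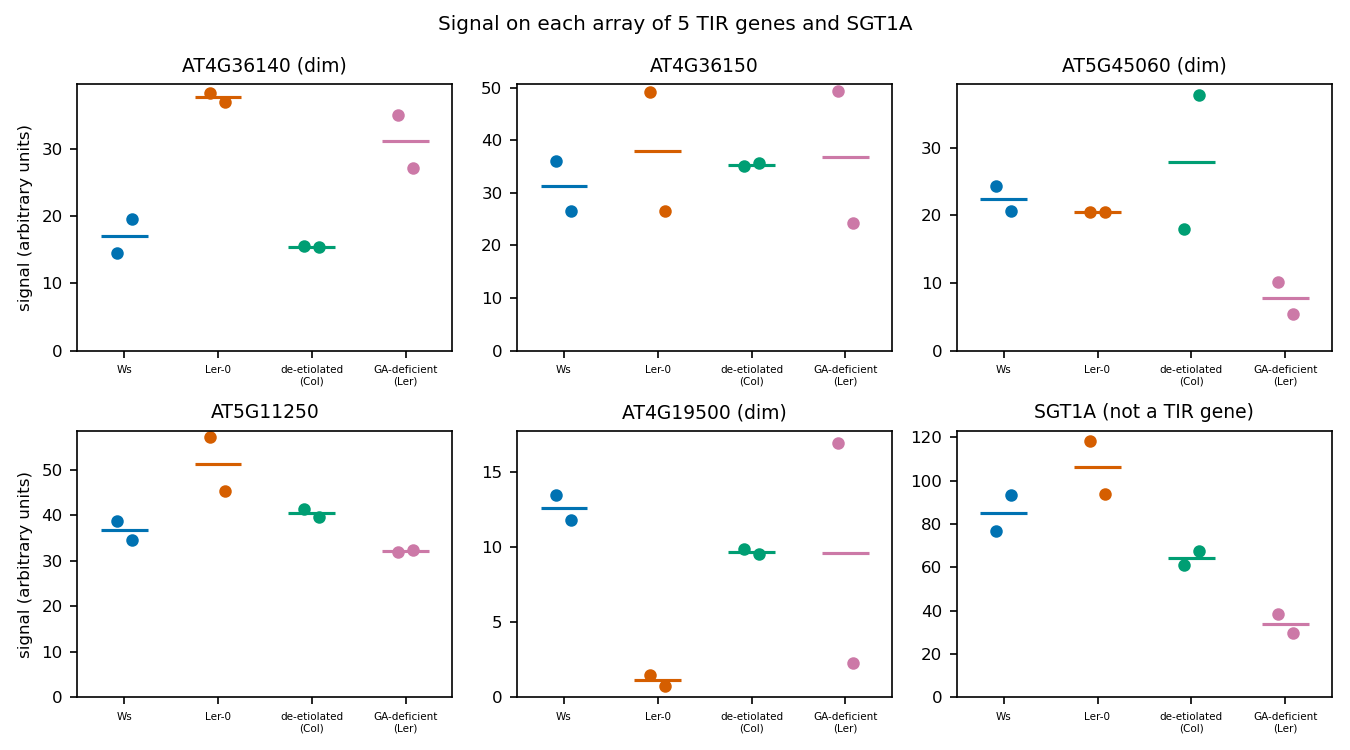
Signal (arbitrary units, linear axis from 0) of 5 TIR genes and of SGT1A, a co-chaperone that is not a TIR gene. Points are single arrays and bars are means of 2 arrays; AT4G36140 shows the 4 arrays of Ler background above the other 4, and SGT1A shows the gibberellin-deficient line at 38.5 and 29.6 below all others.

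Across the family, Ler-0 was the group that stood apart most often. In 10 of 50 genes (20%) both Ler-0 arrays lay above the 6 other arrays, and in 5 (10%) below them. The shares over all probe sets were 6.92% and 5.5%. Of these genes, 2 of the 10 and 0 of the 5 were above the filter, so most were dim. The 10 genes were AT1G72900, AT1G72920, AT2G16870, AT2G17060, AT4G16920, AT4G19520, AT4G36140, AT5G11250, AT5G40060 and AT5G40910. The 5 were AT1G56520, AT3G51570, AT4G19500, AT5G17680 and AT5G36930. For Ws the numbers were 2 above and 3 below (background 3.66% and 5.49%), and for the gibberellin-deficient line 2 above and 6 below (11% and 9.04%). For the de-etiolated line they were 0 and 0 (7.09% and 6.77%). The 8 arrays are the same for all genes, so these counts describe the arrays at hand.

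The accession comparison uses the same Ler-0 arrays, as do the comparisons of both mutants with Ler-0 given below. Its counts are therefore not independent of those above. A gene with both Ler-0 arrays above the 6 others has Ws below Ler-0 by construction. Both Ws arrays lay below both Ler-0 arrays in 17 of 50 genes (34%) and above them in 9 (18%), against 24.9% and 19.4% of all probe sets. The median log2 difference over the 50 genes was -0.15 and that over all probe sets -0.04. Fold changes were counted on the log2 scale of the tests, which adds a constant to every signal and so shrinks those of dim genes. On that scale a difference of more than 2-fold was seen in 4 of 50 genes (8%), against 5.14% of all probe sets. These 4 were AT1G72900, AT4G36140 and, with Ws higher, AT4G19500 and AT1G57630. AT1G57630 had 5.83 and 7.31 in Ws, 2.04 and 0.325 in Ler-0, 3.94 and 2.36 in the de-etiolated line, and 1.02 and 1.73 in the gibberellin-deficient line. Its Ws arrays were above all others, and the log2 difference of 1.23 was not called (adjusted p = 0.15).

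For the de-etiolated line, in Col, the differences from Ws were smaller in size than those from Ler-0, as they were over all probe sets. On the same log2 scale, none of the 50 genes differed more than 2-fold from Ws (3.46% of all probe sets did). From Ler-0, 6 genes did (12% against 7.32%). The counts hold for that scale only: mean signals of AT1G57630 were 3.15 in the de-etiolated line and 6.57 in Ws. The median absolute log2 difference was 0.20 against Ws and 0.34 against Ler-0, with 0.23 and 0.29 over all probe sets. Both arrays lay above both Ws arrays in 8 genes (16%, background 21.9%) and below them in 5 (10%, background 19%). Against Ler-0 they lay above in 9 genes (18%, background 23.4%) and below in 18 (36%, background 26.4%). The difference between these counts was not tested.

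For the gibberellin-deficient line, labelled Ler, against Ler-0, the median log2 difference over the 50 genes was -0.06, against 0.01 over all probe sets. Both arrays lay below both Ler-0 arrays in 17 genes (34%, background 24.1%) and above them in 11 (22%, background 26.1%). Among the 11 were AT5G17680, with 20.4 and 27.1 against 10.1 and 14.1, and AT3G51570, with 12.6 and 17.6 against 6.64 and 8.00. Neither was called (adjusted p = 0.19 and 0.24, fit without a filter). Both belong to the 5 genes with both Ler-0 arrays below all other arrays, so Ws and the de-etiolated line lay above Ler-0 by construction. Also among the 11 were AT5G41540 and AT5G45200, in which both arrays of the mutant lay above all other arrays.

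Among the other genes above the filter, none was called. AT3G04220 had 24.3 to 39.5 over all 8 arrays, and the largest of its 4 log2 differences in size was -0.11. AT5G38340 ranged from 29.5 to 64.7, and AT5G18370 from 22.3 to 48.0, with replicates of the same group covering much of either range. AT5G38350 had 34.5 and 29.7 in Ws, above the 6 other arrays at 18.1 to 28.6, and its log2 difference from the de-etiolated line was not called (adjusted p = 0.355). AT5G46450 had 29.6 and 38 in the gibberellin-deficient line, below the 6 other arrays at 41.2 to 59.0, and a log2 difference from Ler-0 of -0.47 (adjusted p = 0.24). AT5G40060 had 53.6 and 46.1 in Ler-0, above all other arrays at 28.2 to 40.3, and Ws differed from Ler-0 by -0.67 (adjusted p = 0.11).

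In AT5G22690, which was above the filter, replicates of a group lay far apart. Its signal was 6.73 and 24.8 in Ws, 25.8 and 33.2 in Ler-0, 23.5 and 24.8 in the de-etiolated line, and 57.7 and 27.6 in the gibberellin-deficient line. The log2 difference of -0.98 between Ws and Ler-0 was not called (adjusted p = 0.27). Without Ws replicate 2 it was -1.73, and the distance between the highest and the lowest group mean was 2.15. AT5G41550 had 25.5 and 2.68 in the de-etiolated line and 11.8 to 28.0 on the 6 other arrays. AT5G49140 had 23.5 and 2.69 in the gibberellin-deficient line.

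The remaining dim genes were called in no comparison. Signals stayed at or below 10 on every array in 8 genes of the family, among them AT2G17050 (0.249 to 0.865) and AT5G48770 (0.636 to 0.930). All values of these 2 genes lie below the pseudocount of 2.96, which shrinks their differences: AT2G17050 had log2 differences of -0.13 between Ws and Ler-0 and 0.21 between the de-etiolated line and Ws. The pairs of neighbours AT1G56520 and AT1G56540, AT2G17050 and AT2G17060, AT3G51560 and AT3G51570, and AT5G41540 and AT5G41550, and the trio AT5G18350 to AT5G18370, held no called gene. In all, 26 of the 50 genes lay in 9 runs.

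Of the proteins that act with TIR receptors, a list of 20 helper and signalling genes had 2 with a probe set of their own, SGT1A and SAG101. SGT1A, a co-chaperone that works with HSP90 to keep such receptors stable, had 119 and 93.7 in Ler-0, 76.7 and 93.3 in Ws, 61.1 and 67.4 for the de-etiolated line, and 38.5 and 29.6 in the gibberellin-deficient line. Both arrays of the gibberellin-deficient line lay below all others. SGT1A was lower there than in Ler-0 by a log2 difference of -1.56 (2.95-fold, SE 0.20, adjusted p = 0.00086), with adjusted p up to 0.012 over the alternatives. It was also lower in the de-etiolated line than in Ler-0 (-0.69, adjusted p = 0.038). That call was lost without either array of Ler-0 (adjusted p = 0.21 and 0.064) or of the de-etiolated line (0.14 and 0.077), and without a filter (0.072). SAG101, a partner of EDS1, was dim, with 16.2 and 12.6 in the gibberellin-deficient line against 24.6 and 36.9 in Ler-0, and was not called (adjusted p = 0.15, fit without a filter). No gene of a list of 12 for salicylate synthesis and defence output was named alone by a probe set in the annotation used. The state of that response was therefore not examined here. This is a limit of the naming, since 8794 probe sets of the array carry no gene name.

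Of 27 further TIR genes outside the list of 60, 9 had a probe set of their own and 3 were tested. AT4G12010 was lower in the de-etiolated line than in Ler-0, at 32.5 and 27.8 against 54.8 and 56.1, a log2 difference of -0.82 (adjusted p = 0.021). That call was lost without replicate 2 of the de-etiolated line (adjusted p = 0.095), Ler-0 replicate 1 (0.079) or Ler-0 replicate 2 (0.11), and without a filter (0.051). AT1G63750, dim, had 0.867 and 1.70 in the gibberellin-deficient line against 23.0 and 34.1 in Ler-0 and 12.2 to 22.9 in Ws and the de-etiolated line. Its log2 difference from Ler-0 was -2.88 (adjusted p = 0.0052, fit without a filter). Of 42 coiled-coil receptors, the other large class of these immune receptors, 23 had a probe set of their own and 2 of their probe sets were tested. None was called in the 4 comparisons, with or without the filter. Like the TIR genes, these receptors were mostly dim.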

How the data were processed

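The deposited values are 1 signal intensity per probe set and array, and the submitters' processing notes name MAS5; settings are not given in the sources used here. The trimmed means show that the arrays were scaled to a common level. Genes were named through the annotation of the array, and RefSeq's gene table (TAIR10.1) gave symbols and gene order. The scale was log2(signal + 2.96), where 2.96 is 10% of the median, 29.6, over probe sets with 1 gene, so a fold change understates that of dim genes. Array controls (64 of 22810 probe sets) and dim probe sets were left out of the main test. R 4.3.3 with limma 3.58.1 (lmFit, contrasts.fit, eBayes with a trend) gave two-sided tests with 4 residual and about 8.00 prior degrees of freedom. The steps were tested on simulated data. The first pass mark for the share of large changes found was missed in 1 of 4 comparisons. The pass marks were changed after that was seen, with the fit left as it was. Smaller planted changes were found less often than large ones. Changes were planted only in probe sets above the filter, so the simulated data do not cover dim genes. Precision is limited by the number of arrays. The labels do not state separate cultures for the replicate arrays, and the p-values then cover only the spread among these arrays, which may be technical. Genes given array by array were those called by the F test, the 5 dim genes with the highest single signal, genes of runs (at most 10 genes apart) and called genes of the other lists. Any others, such as AT4G19500 and AT5G11250, were chosen after their values were seen. The members and lists were chosen with earlier results of these data known. Since most genes proved dim, the fit without a filter is given beside the test with it. Alternatives to that fit were added after seeing the data.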

Additional observations from a re-analysis of the deposited data

How the results depend on the processing

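The counts of called TIR genes were small under all settings run. With the filter, the count of 0 between Ws and Ler-0 became 1 without a filter, that of 0 between the de-etiolated line and Ler-0 became 2, that of 0 between the gibberellin-deficient line and Ler-0 became 1, and the F test's 1 became 2. The F count was 0 without a mean-variance trend. Leaving out each array in turn gave 0 to 1 for these 4 results, and 0 to 0 for the de-etiolated line against Ws. A fit that leaves 1 array in a group assumes that it varies like the other groups. The F count does not always stand for the same gene: without Ws replicate 2 the gene counted was AT5G22690, not AT1G72940. The replicate block gave counts of 0, 0, 0, 0 and 1, unchanged. Deviations of arrays with the same letter had correlations of -0.033 to 0.14 between groups, so the letters are not shown to pair the arrays. The following repeats were chosen after seeing the data. Over all 50 genes without a filter, leaving out single arrays gave 0 to 2 calls between Ws and Ler-0, 1 to 3 between the de-etiolated line and Ler-0, 1 to 2 between the gibberellin-deficient line and Ler-0, and 1 to 2 for the F test. There the replicate block took the F count from 2 to 1, since AT4G36140 was no longer called (adjusted p = 0.061). AT1G72900 was lower than in Ler-0 under every alternative run, and its calls in both mutants held in all of them. No call repeated under the alternatives reversed its direction. Why calls were lost was not tested.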

Other observations

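Probe sets that name several genes covered 4 of the listed genes left out above. That of AT5G41740 and AT5G41750 had 15.2 and 28.2 in the gibberellin-deficient line, 35.2 and 33.1 in Ler-0, 27.7 and 33.2 in Ws, and 33.8 and 29.4 in the de-etiolated line, and was not called (adjusted p = 0.18 for the gibberellin-deficient line against Ler-0). That of AT5G46260 and AT5G46490 had 1.27 and 0.706 in the de-etiolated line against 6.08 and 6.52 in Ws and 4.82 and 4.33 in Ler-0, with 9.39 and 0.503 in the gibberellin-deficient line. That of AT4G16940 and AT4G16960 ranged from 1.30 to 11.6, and its groups overlapped.

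Among the coiled-coil receptors AT5G05400, dim by its mean, was highest in both lines of Ler background. It had 47.3 and 66.8 in the gibberellin-deficient line and 17.4 and 30.2 in Ler-0, against 6.39 and 6.70 in Ws and 12.8 and 7.32 in the de-etiolated line. The limma F test without a filter gave adjusted p = 0.0060, and the log2 difference between the mutant and Ler-0 was 1.19 (adjusted p = 0.12). This gene was named after its values were seen, and its F test was not repeated under the alternatives. The share of all probe sets with such a split by background was not counted.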
